A study of Saccharomyces cerevisiae with 2 samples.

Results

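The genes described here are 10 budding yeast (Saccharomyces cerevisiae) genes that are switched on by mating pheromone and act in adhesion, cell fusion and nuclear fusion: FUS1, FUS2, FIG1, FIG2, AGA1, PRM1, PRM2, PRM3, KAR4 and KAR5. They were chosen by name, and their probes are those of 2 tiling arrays that carry one of these names alone or as one side of a region between divergent genes. This gave 88 probes out of 41775, and 10 genes out of 5461 nuclear genes with coding probes. Of the 88 probes 15 lay upstream of a member, 72 in a coding region and 1 downstream, and none was lost to a filter. On each array the Cy5 channel carried nucleosomal DNA, prepared with micrococcal nuclease, which digests the DNA that joins one nucleosome to the next, and the Cy3 channel carried genomic DNA, sheared by sonication. The cells had been arrested with alpha factor, the pheromone that a cells respond to, and the sources used here do not give the strain. No RNA was measured, so neither the arrest nor the induction of the members was checked.

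Alpha factor binds its receptor Ste2 on a cells and acts through a heterotrimeric G protein and a cascade of protein kinases that ends in Fus3 and Kss1. These kinases release the transcription factor Ste12, which binds pheromone response elements upstream of mating genes. The products then let a cell stick to its partner, remove the wall between both cells, fuse the plasma membranes and join the nuclei. In yeast, active promoters are known as regions poor in nucleosomes, while coding regions carry regular arrays of them.

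Values are given as log2 of Cy5 (nucleosomal) over Cy3 (genomic) after the median over each array's probes was subtracted. The arrays, replicate 1 and replicate 2, form 1 group, shared a slide and a dye orientation, and separate cultures are not mentioned in the labels. Any p-value therefore reflects the spread of these arrays alone, which may be technical, and their number limits the precision. Median raw spot brightness lay between 32997 and 33242 in Cy5 and between 16928 and 17885 in Cy3, over local backgrounds of 57 to 80.5. Over all kept probes Pearson's r between the arrays was 0.998 and Spearman's rho 0.997, across 41454 probes that are not independent replicates. Mitochondrial DNA, which has no histones, stood 4.50 and 4.55 above nuclear DNA on replicates 1 and 2. Over all nuclear probes the median was 0.56 upstream and -0.11 in coding regions. Both orders run against what is known of DNA protected by nucleosomes. Whether the channels are as labelled was not tested, the direction is kept as the labels give it, and no value below is read as more or fewer nucleosomes.

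The first comparison asks where along each member the ratio departed from the array median. Upstream of the members nearly every probe lay above the median, while their coding probes fell on both sides of it. With limma's moderated test against 0 and an adjusted p under 0.05, 14 of 15 upstream probes were called above 0, none below and 1 was not called. The background is high, since 65.4% of all nuclear upstream probes were called above 0 and 30.7% below. Of the 72 coding probes 35 were called above 0, 32 below and 5 were not called, against 40.4% above and 52.9% below over all nuclear coding probes. The median was 1.03 over the members' upstream probes and 0.029 over their coding probes. Both arrays gave the same sign at 87 of the 88 probes, and the widest gap between arrays at a member probe was 0.24. After normexp background correction, which started from the raw intensities, only 16 coding probes were called above 0. The coding count thus depends on the processing, and which step moved it was not tested.

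**Figure D1:**
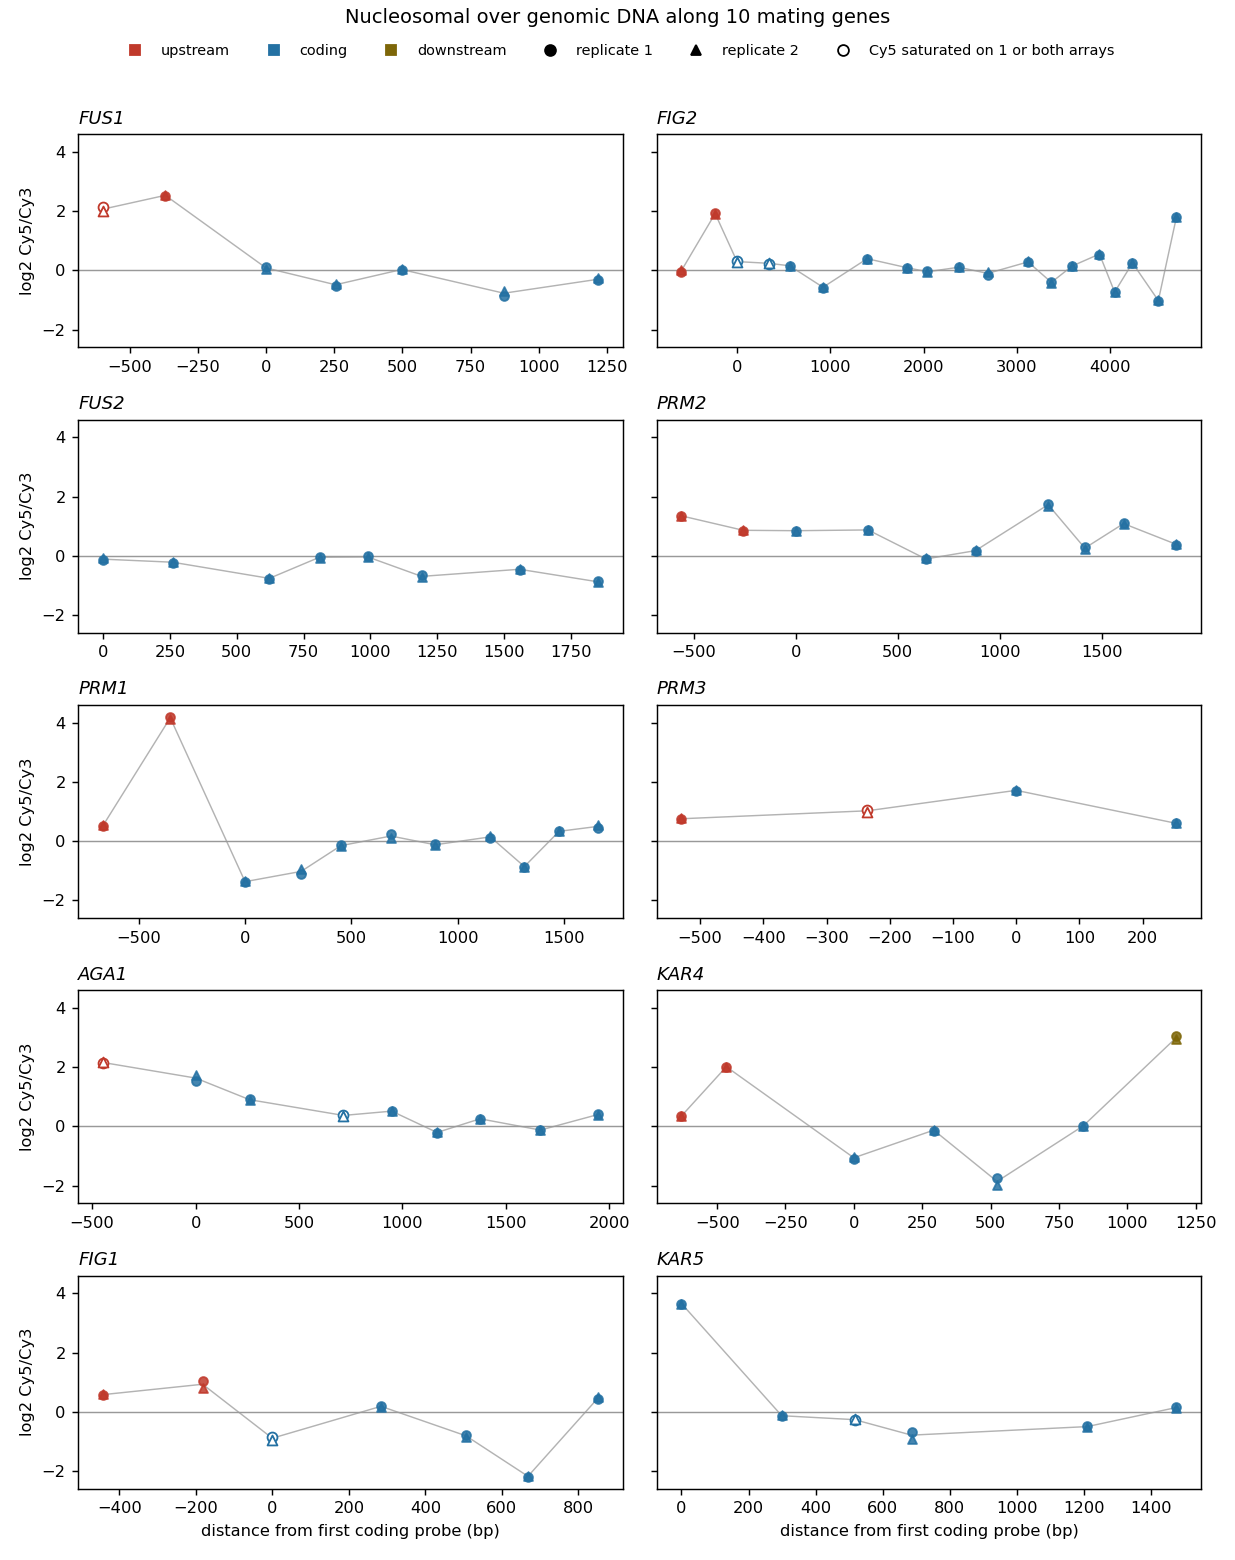
Log2 ratio of Cy5 over Cy3 (vertical axis, array median = 0) at each probe of the 10 members against the distance in bp from the first coding probe (horizontal axis, 5′ to 3′), with circles for replicate 1, triangles for replicate 2, open symbols where Cy5 was saturated on 1 or both arrays and a grey line through the means. Single probes at PRM1 (4.17 upstream), KAR5 (3.66, first coding probe) and KAR4 (3.01, downstream) rise far above their neighbours, and replicates nearly coincide.

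Adhesion genes come first. AGA1 (YNR044W, chromosome 14) encodes the subunit that anchors a-agglutinin, the adhesin of a cells, in the wall. Its only upstream probe (chr14:703228-703287) had 2.15 on replicate 1 and 2.17 on replicate 2, above 0 on both arrays (limma adjusted p = 5.80e-07). Cy5 was saturated there on both arrays, at a raw brightness of 65222 and 65221, so 2.16 is a lower bound. The AGA1 coding region was highest at its first coding probe and next highest at the second, without a steady descent after them. The first coding probe stood at 1.53 and 1.74, the second at 0.92 and 0.89, and the remaining 6 between -0.20 and 0.52. Of its 8 coding probes 6 were called above 0 and 2 below, and the coding mean of 0.47 ± 0.012 (SD, n = 2 arrays) was higher than that of 89.8% of nuclear genes. Without the first probe the coding mean was 0.31. The lowest AGA1 coding probe (chr14:704842-704901) turned to 1.18 after normexp. Cy5 was saturated on replicate 2 at the coding probe at chr14:704390-704448.

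FIG2 (YCR089W, chromosome 3) encodes a wall adhesin of the mating projection and is the longest member on the array, with 17 coding probes. Its nearer upstream probe (chr3:267241-267300, 118 bp from the start codon as placed here) had 1.93 and 1.92 on replicates 1 and 2. The farther one, 479 bp away, had -0.035 and 0.033 and was the only upstream probe of a member that was not called (limma adjusted p = 0.973). One step along the chromosome thus separated a high value from one at the array median. Within the FIG2 coding region 11 probes were called above 0 and 5 below, and 15 of the 17 lay between -0.73 and 0.56. The last 2 probes fell outside this range in opposite directions, and the range was drawn after they were seen. Over all 17 the SD was 0.61, at the 46.9 percentile of nuclear genes with at least 5 coding probes. The probe at chr3:271995-272053 had -1.03 and -1.01, and the final one, at chr3:272188-272247, had 1.79 and 1.80, higher than 99.1% of all nuclear coding probes. The coding mean of 0.088 ± 0.0040 (SD, n = 2 arrays) was small, and it turned to -0.18 after normexp and to -0.040 without centring. Cy5 was saturated on replicate 1 at the first 2 coding probes, and without dim and saturated probes the mean was 0.063.

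Cell fusion genes follow. FUS1 (YCL027W, chromosome 3) encodes a membrane protein of the mating projection that cell fusion requires. Its nearer upstream probe (chr3:71661-71720) had 2.52 and 2.56 on replicates 1 and 2. The farther one (chr3:71433-71492) had 2.13 and 2.01, with Cy5 saturated on replicate 1 alone. FUS1 was thus the only member with both upstream probes above 2. Its 5 coding probes lay between -0.77 and 0.087, with 1 called above 0, 3 below and 1 not called. Their SD of 0.36 within the gene stood at the 7.10 percentile of the 2747 nuclear genes with at least 5 coding probes, over which the median SD was 0.62.

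PRM1 (YNL279W, chromosome 14) encodes a membrane protein that acts when the plasma membranes of mating cells fuse. Among the unsaturated upstream probes of the members it held the highest. That probe (chr14:110713-110772, 176 bp from the PRM1 start) had 4.21 and 4.12 on replicates 1 and 2, higher than 99.0% of all nuclear upstream probes. Neither channel was saturated there, with a raw Cy5 brightness of 42997 on replicate 1 and 39331 on replicate 2 over a Cy3 brightness of 1389 on replicate 1 and 1276 on replicate 2. After normexp it was 2.98. The other upstream probe (chr14:110397-110456) had 0.53 and 0.54. Both probes lie between PRM1 and ERG24, a gene of ergosterol synthesis, and the low one is closer to ERG24, 81 bp from its start. Just past the high probe the ratio dropped below 0: the first coding probe of PRM1 (chr14:111065-111124) had -1.40 and -1.34 and the second -1.10 and -0.94. The other 7 lay between -0.86 and 0.50, so that 4 of its 9 coding probes were called above 0 and 5 below.

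FIG1 (YBR040W, chromosome 2) encodes a membrane protein needed for calcium entry and fusion during mating. Its upstream probes were modest, with 1.05 and 0.81 at chr2:316731-316790 and 0.57 and 0.59 at chr2:316471-316530 on replicates 1 and 2. The coding region was uneven. The probe at chr2:317581-317640 had -2.19 and -2.17, the lowest value of any member, and only 24 of the 30056 nuclear coding probes were lower. The next probe, which is also the last, had 0.44 and 0.50. The first coding probe (-0.84 and -0.94) was saturated in both channels on both arrays, so its ratio carries no information on size or direction. The SD over the FIG1 coding probes, 1.04, was higher than that of 96.1% of nuclear genes with at least 5 probes. The saturated probe enters this SD and the coding mean of -0.65, which was -0.58 without it. After normexp the probe at chr2:317581-317640 was -0.52.

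FUS2 (YMR232W, chromosome 13) encodes a protein that acts with Rvs161 at the zone of cell fusion, and it was the flattest and most uniformly low member. No probe carried an upstream annotation to it. Its 8 coding probes lay between -0.88 and -0.036, with 6 called below 0, none above and 2 not called. They had an SD of 0.34, at the 6.08 percentile of genes with at least 5 probes. The nearest probe before its first coding probe belongs to the coding region of the neighbour PEP5, 292 bp away, and had 1.74 and 1.73 on replicates 1 and 2, with Cy5 saturated on both. This probe is not a FUS2 probe and was chosen after its value was seen.

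Genes of nuclear fusion are the last group. KAR4 (YCL055W, chromosome 3) encodes a transcription factor that works with Ste12 on genes of nuclear fusion. Its nearer upstream probe (chr3:27576-27635) had 2.01 and 2.02 on replicates 1 and 2, and the farther one (chr3:27412-27471), 398 bp from its start, had 0.36 and 0.35. Both lie in the region shared with the peroxisomal gene PEX34. In the coding region 3 of 4 probes were called below 0, none above and 1 was not called. The lowest, at chr3:28567-28625, had -1.73 and -1.98, but Cy5 was dim there, at a raw brightness of 1321 and 1090, and normexp turned it to 1.59. The downstream probe of KAR4 (chr3:29224-29280), the only one of its kind among the members, had 3.07 and 2.94.

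KAR5 (YMR065W, chromosome 13) encodes a protein of the nuclear envelope needed for nuclear fusion and, like FUS2, had no upstream probe. Its first coding probe (chr13:399709-399768) had 3.66 on both replicates, and only 8 of the 30056 nuclear coding probes were higher. There was no saturation, since the raw Cy5 brightness reached 43808 on replicate 1 and 49533 on replicate 2 over 2614 and 2625 in Cy3. The value was 2.63 after normexp. The other 5 coding probes, of which 1 was saturated in Cy5 on both arrays, lay between -0.79 and 0.15, so a single probe set the sign of the KAR5 coding mean, which was 0.35 with it and -0.31 without it. The probe before it, 251 bp away in the coding region of the neighbour AEP1, had 0.44 and 0.50 and was likewise chosen after its value was seen. The high value was thus confined to 1 of these 3 adjacent probes. The SD over the KAR5 coding probes, 1.65, was the highest of the members that had at least 5.

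PRM2 (YIL037C, chromosome 9) encodes a pheromone-regulated membrane protein, and PRM3 (YPL192C, chromosome 16) a nuclear envelope protein needed for nuclear fusion. These genes had the highest coding means of the members, with PRM3 well above the rest and PRM2 close to AGA1. The lead of PRM3 rested on its first coding probe. Without the first coding probe, an alternative chosen after seeing the data, PRM3 was 0.60, beside 0.63 at PRM2 and 0.31 at AGA1. In PRM2, 7 of 8 coding probes were called above 0 and 1 below, up to 1.76 and 1.70 at chr9:283710-283769. In PRM3 both coding probes were above 0, with 1.71 and 1.73 in the first (chr16:182978-183036) and 0.60 and 0.60 in the second. Upstream of PRM2, in the region it shares with CST6, a transcription factor gene, the farther probe (chr9:285508-285567) was the higher one, at 1.36 and 1.34, against 0.84 and 0.88 in the nearer. Upstream of PRM3 the nearer probe (chr16:183213-183272) had 1.06 and 0.99, lower bounds because Cy5 was saturated on both arrays, and the farther 0.74 and 0.77.

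The next comparison sets the DNA upstream of each gene against its own coding region. Upstream values exceeded coding values in 7 of the 8 members with both, by 0.45 to 2.61, and PRM3 was called lower on a bound set by saturation. Means were taken over upstream probes within 500 bp of the start codon and over all coding probes, and their difference was tested with limma over 4982 nuclear genes. With 7 members higher and 1 lower (adjusted p under 0.05), the background was 74.9% of all genes higher and 21.2% lower, so the count is close to what genes at large showed. The median difference was 1.55 ± 0.032 over the members (SD, n = 2 arrays) and 0.96 over all genes, a description without a test.

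PRM1 had the widest difference as measured, 2.64 and 2.58 on replicates 1 and 2 (limma adjusted p = 1.94e-08). FUS1 followed with 2.64 and 2.54 (adjusted p = 3.12e-08). The values of both genes overlapped between arrays, so their order is not settled. Cy5 was saturated at the farther upstream probe of FUS1 on replicate 1, so its difference there is a lower bound. Without dim and saturated probes FUS1 was 2.82 and PRM1 2.61. As reported, PRM1 and FUS1 stood at the 89.2 and 88.9 percentiles of all genes. KAR4 came next with 1.92 and 1.96, then AGA1 with 1.69 and 1.69, FIG1 with 1.45 and 1.36, FIG2 with 0.86 and 0.89 and PRM2 with 0.44 and 0.46. These neighbours in the order did not overlap between arrays, but their order depended on the processing. After normexp AGA1 (1.76) stood above KAR4 (1.02), and FIG2 (0.97) above FIG1 (0.76). With a window of 250 bp FIG2 (1.84) stood above AGA1 (1.69) and FIG1 (1.58). The AGA1 difference is affected by saturation of its upstream probe on both arrays and of 1 coding probe on replicate 2. Its place below KAR4 is therefore not settled. Saturation also touched the first coding probe of FIG1 on both arrays and 2 coding probes of FIG2 on replicate 1. Without dim and saturated probes FIG1 was 1.34 and FIG2 0.90. PRM3 had -0.25 and -0.28 (limma adjusted p = 0.000119). Its nearer upstream probe was saturated, so that its upstream mean and its difference are lower bounds and the direction is not settled. Without dim and saturated probes, which leaves the farther upstream probe alone, PRM3 was -0.40 (limma adjusted p = 1.85e-05).

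The PRM3 and PRM2 calls were the least stable. PRM3 no longer passed after normexp (-0.097, limma adjusted p = 0.548), and without its first coding probe, an alternative chosen after seeing the data, it turned to 0.29 on 1 coding probe. PRM2 no longer passed after normexp (0.40, limma adjusted p = 0.0700), although its value hardly moved. The choice of window mattered where the 2 upstream probes differed: with 250 bp in place of 500 bp, PRM1 was 4.43, FIG2 1.84 and PRM2 0.21. Normexp reduced KAR4 to 1.02 and FIG1 to 0.76, and loess reduced FIG2 to 0.46.

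**Figure D2:**
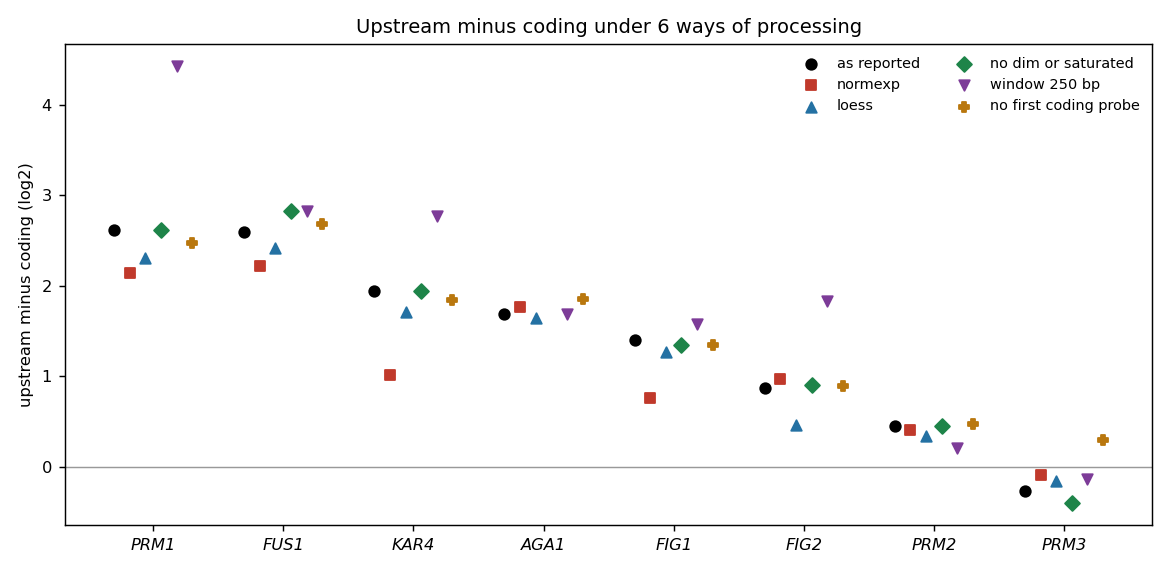
Difference of upstream and coding means (log2, vertical axis) for the 8 members with both regions under 6 ways of processing, from the values as reported to an alternative without the first coding probe; AGA1 has no value without saturated probes. Points of 7 members stay above 0 throughout, and PRM3 lies below 0 except without its first coding probe (0.29).

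Taken by region, the members' upstream means formed 2 sets with a window of 500 bp. PRM1 (2.35 ± 0.026), FUS1 (2.31 ± 0.030, a lower bound on replicate 1) and AGA1 (2.16 ± 0.013, a lower bound) stood between the 83.8 and 86.6 percentiles of all genes (SD, n = 2 arrays each). KAR4 (1.19), PRM2 (1.11), FIG2 (0.96), PRM3 (0.89, a lower bound) and FIG1 (0.76) stood between the 46.3 and 59.3 percentiles. The step between both sets, from AGA1 down to KAR4, was 0.97, while the next widest step between neighbours was 0.14. PRM1 and FUS1 differed by 0.044 and their array values by as little as 0.0040, less than the SD of either, so they are not ordered. Without dim and saturated probes FUS1 was 2.54 and PRM1 2.35. AGA1 cannot be ranked below them either, since its value is a lower bound, and it stood first after normexp (2.21) and loess (2.06). All 8 were called above 0, beside 73.6% of all genes above and 23.0% below, and the median was 1.15 over the members and 0.88 over all genes. Loess lowered FIG1 to 0.45 and KAR4 to 0.73. With a window of 250 bp KAR4 was 2.02, FIG2 1.92 and PRM1 4.17, and only the probe nearer the start then counts in each. The 2 sets were then lost, since KAR4 and FIG2 lay beside AGA1 at 2.16.

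Coding means split evenly, with 5 members called above 0 and 5 below, against 38.3% above and 55.6% below among all genes. PRM3 (1.16 ± 0.0034, SD, n = 2 arrays) was the highest, at the 98.5 percentile of all genes, followed by PRM2 (0.66 ± 0.0079, 94.6 percentile), AGA1, KAR5 (0.35 ± 0.030) and FIG2. Without the first coding probe PRM3 was 0.60, below PRM2 at 0.63. At the low end stood KAR4 (-0.75 ± 0.030, 4.43 percentile) and FIG1 (-0.65 ± 0.011, 6.92 percentile), with FUS2 at -0.40, FUS1 at -0.29 and PRM1 at -0.26. Without its saturated first coding probe FIG1 was -0.58. The array values of FUS1 and PRM1 overlapped, so these coding means are not ordered. Both low means turned above 0 after normexp, to 0.33 at KAR4 and 0.11 at FIG1. The median over the members, -0.088, lay beside -0.082 over all genes.

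**Figure D3:**
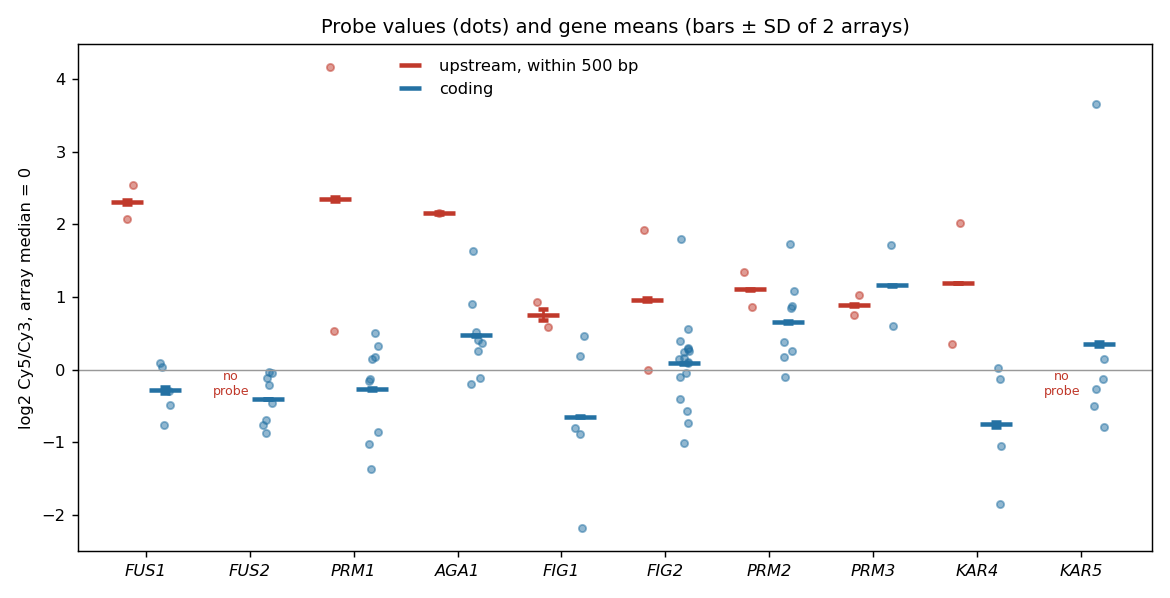
Log2 ratio of Cy5 over Cy3 (vertical axis) of each member's upstream probes (red, left) and coding probes (blue, right), with dots for probes (mean of both arrays) and bars for gene means ± SD of 2 arrays. PRM1 (2.35), FUS1 (2.31, a lower bound on replicate 1) and AGA1 (2.16, a lower bound) have the high upstream means. PRM3 has the highest coding mean (1.16) and an upstream mean that is a lower bound, and FUS2 and KAR5 have no upstream probe.

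**Figure D4:**
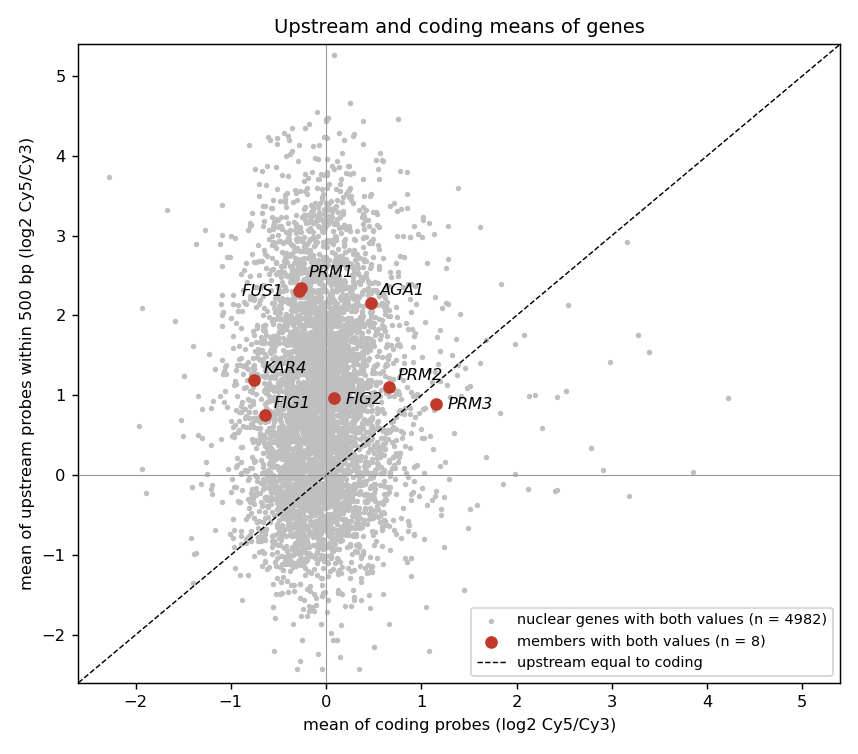
Mean upstream value (vertical axis) against mean coding value (horizontal axis), both log2 Cy5 over Cy3, for 4982 nuclear genes (grey) and the 8 members with both values (red). All members but PRM3 lie above the dashed line of equal values, as 74.9% of all genes were called, and PRM3 and PRM2 lie to the right at coding means of 1.16 and 0.66.

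A further comparison, chosen after seeing the data, asked whether the upstream probe nearer the start codon was higher than the farther one in the 7 members with at least 2 upstream probes within 500 bp. The nearer probe was higher in 6 members and lower in PRM2 (limma over 2629 genes, adjusted p under 0.05). At PRM1, PRM2 and KAR4 both probes are shared with a divergent gene, and the farther probe is the one closer to that gene's start. Its distance was 81 bp from ERG24, 86.5 bp from CST6 and 218.5 bp from PEX34. Over all genes 44.2% were called higher near the start and 51.6% lower, with a median difference of -0.21, while the median over the members was 0.47. The differences on replicates 1 and 2 were 3.68 and 3.58 at PRM1, 1.96 and 1.89 at FIG2 and 1.65 and 1.67 at KAR4, all far above the gap between arrays. They were 0.39 and 0.55 at FUS1, 0.48 and 0.22 at FIG1 and 0.32 and 0.22 at PRM3, and -0.52 and -0.46 at PRM2. Saturation touches FUS1, whose farther probe is a lower bound on replicate 1, and PRM3, whose nearer probe is a lower bound on both. After loess 4 members passed above 0, namely PRM1, KAR4, FIG2 and PRM3, while FUS1 (0.098, limma adjusted p = 0.0925) and FIG1 (0.018, limma adjusted p = 0.784) no longer passed. After normexp PRM1 and FIG2 alone passed above 0 and none below, although most differences kept their sign or grew. KAR4 was then 0.70 (limma adjusted p = 0.0554), FIG1 0.82 (limma adjusted p = 0.0691), PRM3 0.37 (limma adjusted p = 0.193) and PRM2 -0.61 (limma adjusted p = 0.0720), and FUS1 turned to -0.15 (limma adjusted p = 0.630).

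FUS1, FIG2 and KAR4 lie on chromosome 3, which also carries the mating-type locus. Their upstream means were 2.31, 0.96 and 1.19 and their coding means -0.29, 0.088 and -0.75. The 3 genes thus differed widely from each other in both regions.

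The other genes of the pathway were grouped by role. In the signalling cascade from receptor to Ste12, upstream values exceeded coding values in 10 of 11 measured genes and fell short in 1 (median difference 2.12), beside 74.9% and 21.2% of all genes. FUS3, the mating kinase gene, had the highest upstream mean, 3.12 ± 0.025 (SD, n = 2 arrays), on 1 probe. The lowest was at STE18, the gene of the G protein gamma subunit, -0.19 and -0.20 on replicates 1 and 2. It turned to 0.094 after loess. Coding means ran from 0.24 at STE2, the receptor gene, to -0.56 at DIG1, a gene of a Ste12 inhibitor.

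The 7 other PRM genes are named, like 3 of the members, for their regulation by pheromone. Their upstream median was 0.077, against 0.88 over all genes. Of these upstream means 4 were called above 0, 2 below and 1 not called, beside 73.6% above and 23.0% below over all genes. The difference from coding was above 0 in 4, below in 2 and not called in 1, beside 74.9% above and 21.2% below. Its median was 0.12, against 0.96 over all genes. PRM4 had the highest upstream mean, 2.54 and 2.68 on 1 probe, above that of every member as reported. However, the means of AGA1 and, on replicate 1, of FUS1 are lower bounds. After normexp PRM4 was 1.91, below AGA1 (2.21) and FUS1 (1.94). The lowest upstream mean was that of PRM10, -0.30 and -0.40. PRM10 turned to 0.63 after normexp. PRM10 also had the lowest coding mean of this list (-0.47), and PRM8 the highest (0.38, on 1 probe).

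In the list of 9 other genes of nuclear fusion, upstream exceeded coding in 8 of 8 measured genes (median difference 1.63), beside 74.9% higher, 21.2% lower and a median of 0.96 over all genes. With a window of 250 bp 6 were higher and 2 lower. SEC72, a gene of the Sec63 translocation complex, had the highest upstream mean, 3.12 and 3.15. SEC66, a gene of the same complex, had the lowest, -0.020 and 0.013, which was not called (limma adjusted p = 0.866). Each of these upstream values rests on 1 probe. KAR3, the gene of the kinesin that pulls the nuclei together, had the highest coding mean (0.47) and SEC66 the lowest (-0.62, on 1 probe). Among 7 other genes of adhesion, polarity and fusion, 5 were higher upstream and 2 lower (median difference 0.87), close to the same shares and median of all genes. RVS161, whose product acts with Fus2, had 2.61 and 2.64 upstream, and SPA2, a polarity scaffold gene, -1.15 and -1.16 on 1 probe. Coding means ran from 1.28 at AGA2, the gene of the adhesive subunit bound to Aga1, on 1 probe, to -0.59 at PEA2, a polarity gene.

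Across 4971 nuclear genes outside the members, the pair of upstream and coding means closest to the members' medians (1.15 and -0.088) belonged to SPT16, at 1.15 and -0.100, a gene of the histone chaperone FACT. OLE1, the fatty acid desaturase gene, followed at 1.13 and -0.10, and PRC1, the gene of vacuolar carboxypeptidase Y, at 1.14 and -0.069. Their distances were 0.012, 0.020 and 0.020 on the log2 scale, over 2 arrays. The middle of the members thus lay in the dense part of the plot of all genes.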

How the data were processed

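Each of the 2 deposited scanner files holds linear spot intensity, both raw and, per the file headers, after background subtraction, spatial detrending and dye scaling by Agilent Feature Extraction 9.1.3.1. The deposited value table holds log2 values, which matched the log2 ratio of the processed intensities within 5e-06. The labels' protocols state a linear amplification of the DNA. Log2 ratios of processed intensities were centred on the array median over 41775 probes (-0.13 before centring on both arrays), with neither loess nor quantile scaling. Non-uniform spots (174 probes) and probes with Cy3 not well above background (147) were left out, which kept 41454. Saturated probes stayed. Among the members 4 probes were saturated in Cy5 on both arrays and 4 on 1.

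Coordinates are those of the array annotation, counted from 1, and the sources used here do not give their genome build. Names were matched to a RefSeq gene table of assembly R64 (5446 of 5466), used for names and strand. The start codon was placed midway between the flanking probes, 221 bp apart (median). Probes and gene means were tested against 0 with limma 3.58.1 in R 4.3.3 (lmFit, eBayes, Benjamini-Hochberg over all probes or genes, threshold 0.05), which was tested on simulated data. Python 3.11.15 was used otherwise. Named are all members, the highest and lowest upstream and coding mean of each pathway list, and the 3 nearest genes. Members and lists were chosen with earlier results of these data known. The alternatives tried were normexp (offset 50), loess, no centring, other probe filters, the value table, other windows and each array alone.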

Additional observations from a re-analysis of the deposited data

How the results depend on the processing

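The deposited value table and the absence of a probe filter changed no call on a member, and each array alone gave upstream medians of 1.14 to 1.15, coding medians of -0.095 to -0.081 and difference medians of 1.52 to 1.57. Only 2 arrays of 1 dye orientation limit all values, and saturation turns values into bounds. No paired analysis was possible because there is 1 group. Calls of upstream member probes below 0 numbered 0 as reported, 2 after loess and 1 without centring. After normexp, 16 coding probes were called above 0 in place of 35, no member was lower upstream in place of 1, and for the nearer against the farther upstream probe 2 members passed above 0 in place of 6 and 0 below in place of 1, although FIG1 (0.82), PRM3 (0.37) and PRM2 (-0.61) were then larger in size. Without the first coding probe, chosen after seeing the data, 0 members were lower upstream. In the other lists, genes lower upstream numbered 1 of the PRM genes in place of 2, and 1 of the adhesion genes in place of 2, both after normexp and without the first coding probe, and 3 of the PRM genes after loess or with 250 bp. In the signalling list they numbered 0 in place of 1 with 250 bp or without the first coding probe, and in the nuclear fusion list 2 in place of 0 with 250 bp.

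The upstream median (1.15) was 1.14 after normexp, 0.88 after loess, 1.02 without centring, 1.11 without dim and saturated probes and 1.97 with 250 bp. The coding median (-0.088) turned to 0.20 after normexp and was -0.033 after loess, -0.22 without centring, -0.10 without dim and saturated probes and -0.22 without the first coding probe. Leaving out the centring shifts every value by -0.13. The median difference (1.55) was 0.99 after normexp, 1.46 after loess, 1.34 without dim and saturated probes, 1.76 with 250 bp and 1.59 without the first coding probe. Single values that turned were the coding means after normexp of FIG1 (0.11), FIG2 (-0.18) and KAR4 (0.33), that of FIG2 without centring (-0.040), that of KAR5 (-0.31) and the PRM3 difference (0.29) without the first coding probe, and the FUS1 difference between nearer and farther probe after normexp (-0.15). The causes were not tested, apart from those that follow from leaving out a probe.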
